A study of Mus musculus with 27 samples.

Results

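The acute phase genes considered here were Saa3, Lcn2, Hp, C3 and Cp, genes for plasma or secreted proteins that change in amount during inflammation. They were selected on measured values of these arrays: the choice was made with a difference between PTHrP and PTH at 24 h already seen. Of the 5 genes, 4 had a probe set annotated to that gene symbol alone, out of 18193 such genes on the array. C3 had none in the annotation used, so C3 is not analysed here. Saa3, Lcn2 and Hp each had 1 probe set and Cp had 8, of which the one with the highest mean stood for the gene. The cells were KUSA4b10, a mouse bone marrow stromal line used as a model of the osteoblast lineage, carrying no stated genetic change. Cells were untreated, or received PTH(1-34), an N-terminal fragment of parathyroid hormone, at 10 nM, or PTHrP(1-141), a long form of parathyroid hormone-related protein, at 20 nM, and were collected at 1, 6 and 24 h. Each of the 9 groups had 3 arrays of total RNA, 27 in all. The ligands differed in dose and in peptide length as well as in identity, and the effects of these cannot be told apart wherever the ligands are compared.

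The acute phase response is best known in the liver, where interleukin-6 acting through gp130 and STAT3, interleukin-1 acting through NF-kappa B, and the C/EBP factors raise transcription of a set of secreted proteins. Several of these genes are also transcribed outside the liver, in stromal cells, adipocytes, macrophages and epithelia. Saa3 encodes a serum amyloid A apolipoprotein made largely outside the liver. Lcn2 encodes lipocalin 2, which binds bacterial siderophores and so withholds iron. Hp encodes haptoglobin, which captures free haemoglobin, and Cp encodes ceruloplasmin, a copper protein that oxidises ferrous iron leaving cells. C3 encodes the central component of complement.

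Promoter sequences are shown because the regulators described further on, C/EBP, STAT and NF-kappa B factors, act at such sequences. RefSeq (GRCm38.p6) supplied windows of 250 bases before to 50 after a start site for 3 of the 4 measured genes, Saa3, Lcn2 and Cp, with 2 start sites for Cp. Each is written 5′ to 3′ on the gene's strand, and capitals mark a match to the C/EBP motif TTGCNNAA on either strand. The Saa3 window lies at chr7:46715627-46715926 on the minus strand, the Lcn2 window at chr2:32387690-32387989 on the minus strand, and the window of the second Cp start at chr3:19956999-19957298 on the plus strand.
Saa3: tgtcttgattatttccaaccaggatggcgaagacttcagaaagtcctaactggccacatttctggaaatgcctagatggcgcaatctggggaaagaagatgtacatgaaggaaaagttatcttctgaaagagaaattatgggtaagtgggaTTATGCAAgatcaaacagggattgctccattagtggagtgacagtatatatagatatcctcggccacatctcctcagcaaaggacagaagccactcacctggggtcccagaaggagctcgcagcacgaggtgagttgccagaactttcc
Lcn2: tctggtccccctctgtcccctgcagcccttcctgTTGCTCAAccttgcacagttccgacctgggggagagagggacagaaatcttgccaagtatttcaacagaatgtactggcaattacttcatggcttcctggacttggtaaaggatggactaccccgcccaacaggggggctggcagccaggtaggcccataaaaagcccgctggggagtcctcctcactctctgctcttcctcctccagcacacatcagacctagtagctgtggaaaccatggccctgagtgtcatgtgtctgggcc
Cp: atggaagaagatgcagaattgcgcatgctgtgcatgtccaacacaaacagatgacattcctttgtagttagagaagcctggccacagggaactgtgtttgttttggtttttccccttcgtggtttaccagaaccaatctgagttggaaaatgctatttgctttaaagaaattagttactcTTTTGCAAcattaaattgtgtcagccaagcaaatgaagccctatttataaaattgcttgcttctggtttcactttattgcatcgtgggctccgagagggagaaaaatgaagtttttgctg
Counted from the start site, the match began at position -99 in Saa3, -216 in Lcn2 and -70 in Cp. It read in the plus direction in Lcn2 and in the minus direction in the others. The window of the first Cp start, chr3:19956804-19957103, overlaps the one shown and held no match of its own to this motif. Of 32851 windows of this length in the table, 10.8% held such a match. None of the member windows held the STAT motif TTCNNNGAA (8.3% of all windows), the NF-kappa B motif searched (8.46%), the full cyclic AMP response element TGACGTCA (1.79%) or its core TGACG (20.8%), which lies within the full element. A match is a string of letters, not a measured site, and its absence from a window says nothing of the factor.

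Values below are log2 of the deposited array intensity, and differences are log2 differences with the SE of the fit. A difference of 1 is a doubling. Array medians were alike (83.03 to 90.87 in intensity), and arrays of a group correlated at 0.9931 to 0.9978 over all probe sets, except in the PTHrP group at 1 h, where the lowest pair stood at 0.9843 and replicate 3 was the array apart. All 8 stromal and osteoblast markers on the array, of 10 listed, had a mean of at least 8. No hepatocyte, leukocyte, neutrophil granule or endothelial marker had a mean over the arrays of 8 or more, though Csf1r reached 8.09 in 1 group. Alb averaged 5.04 and Ptprc 4.15. Of the 4 epithelial markers, 1 was above 8, Epcam at 8.57, and its level with PTHrP and PTH at 24 h was 8.42 and 8.45. Their summed intensities stayed within 577.9 to 772.2 for hepatocyte markers and 809.1 to 1083 for leukocyte markers on all arrays. Of 9 adipocyte markers, 7 were on the array and 6 had a mean of at least 8, Adipoq at 11.27. In whole cultures, fewer cells of a type and less RNA per cell cannot be told apart.

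**Figure D1:**
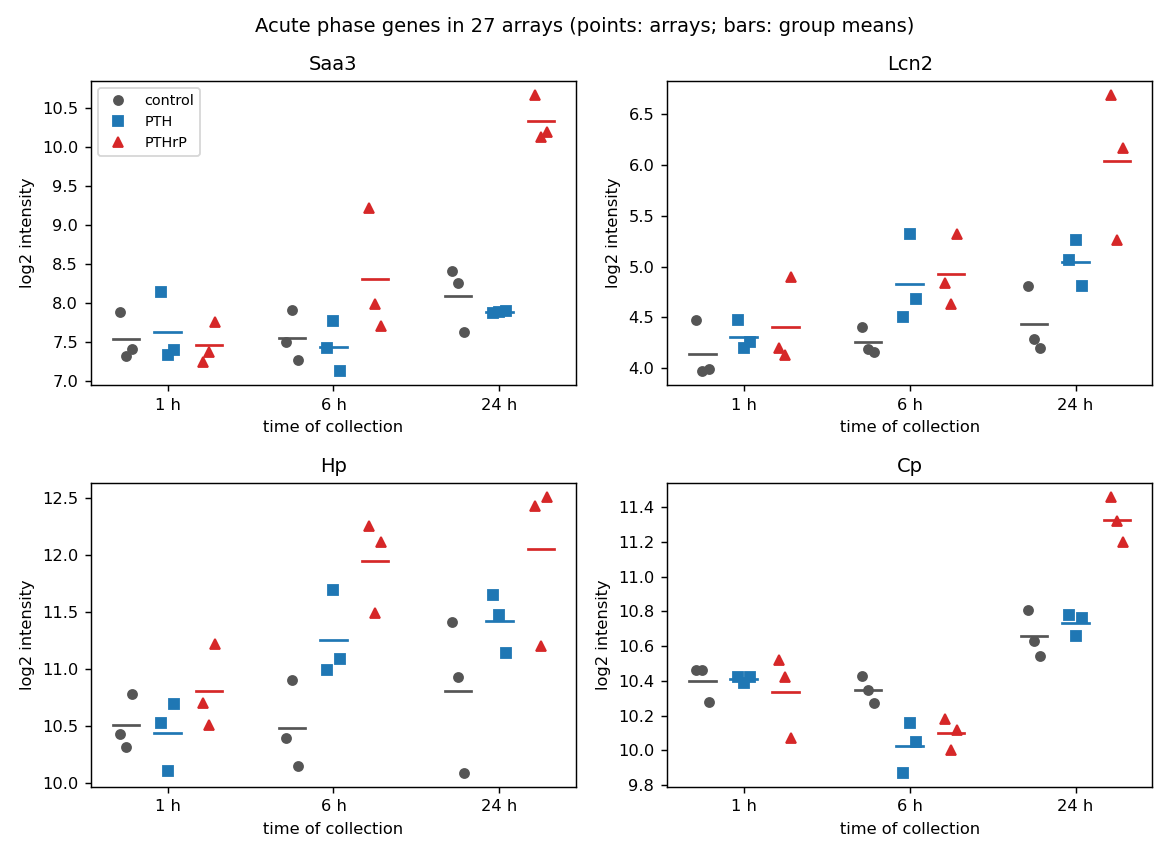
Log2 intensity of Saa3, Lcn2, Hp and Cp on each of 27 arrays (points), by time of collection and treatment, with a bar at each group mean; the axes differ in range and do not start at 0. The 3 Saa3 arrays with PTHrP at 24 h sit between 10.13 and 10.67, and no other Saa3 array is above 9.22.

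Saa3 was the member with the widest range, 7.13 to 10.67 over 27 arrays, and its highest levels were those with PTHrP at 24 h. Untreated cells gave 7.89, 7.33 and 7.42 at 1 h, 7.50, 7.91 and 7.27 at 6 h, and 8.41, 8.26 and 7.63 at 24 h. With PTH the arrays read 8.14, 7.34 and 7.40 at 1 h, 7.43, 7.77 and 7.13 at 6 h, and 7.88, 7.89 and 7.90 at 24 h. The PTH and untreated arrays overlapped at each time. With PTHrP they read 7.25, 7.38 and 7.76 at 1 h, 9.22, 7.99 and 7.71 at 6 h, and 10.67, 10.13 and 10.20 at 24 h. At 6 h replicate 1 was well above the other PTHrP arrays, and at 24 h all 3 were above every other array of the study. At 24 h the mean was 10.33 ± 0.29 (SD, n = 3) with PTHrP, 7.89 ± 0.01 (SD, n = 3) with PTH and 8.10 ± 0.42 (SD, n = 3) in untreated cells. PTHrP stood 2.44 ± 0.29 above PTH, a 5.43-fold difference, and 2.24 ± 0.29 above untreated cells, while PTH stood at -0.20 ± 0.29 against untreated cells. These 24 h differences are the ones the choice of genes rested on or share its arrays, so they carry no test. In the order of the 9 group means, PTHrP at 24 h was separated from the next group, PTHrP at 6 h, and every other pair of neighbours overlapped.

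At 6 h Saa3 did not pass the test with either ligand. The difference from untreated cells was 0.75 ± 0.29 with PTHrP (limma, adjusted p = 0.0725) and -0.11 ± 0.29 with PTH (adjusted p = 0.854). PTHrP against PTH gave 0.86 ± 0.29 (adjusted p = 0.0749), with overlapping arrays. These values turned on single arrays. Without replicate 3 of PTHrP at 6 h, the lowest of that group, the difference from untreated cells was 1.05 (adjusted p = 0.0173) and that from PTH 1.16 (adjusted p = 0.0299). Without replicate 1, the highest, they were 0.29 and 0.40 and did not pass. With all arrays of the groups compared and a block for replicate number, both differences passed in limma (adjusted p = 0.032 and 0.00589). The labels do not pair arrays by that number.

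Lcn2 was the dimmest member, with only 12.7% of genes lower in mean, and reached a log2 of 5 on 7 of 27 arrays: all 3 with PTHrP at 24 h, 2 with PTH at 24 h and 2 treated arrays at 6 h. It entered the tests only through those treated arrays, and its values elsewhere were low. Untreated cells gave 4.47, 3.97 and 3.99 at 1 h, 4.41, 4.19 and 4.16 at 6 h, and 4.81, 4.29 and 4.20 at 24 h. PTH gave 4.47, 4.20 and 4.26 at 1 h, 4.50, 5.32 and 4.68 at 6 h, and 5.06, 5.26 and 4.81 at 24 h. PTHrP gave 4.20, 4.13 and 4.90 at 1 h, 4.84, 4.63 and 5.32 at 6 h, and 6.69, 5.26 and 6.17 at 24 h. At 6 h both treated groups lay above all untreated arrays of that time, by 0.09 for PTH and 0.22 for PTHrP. The share of all genes with arrays apart at 6 h was not counted, so nothing is read from this. At 24 h the PTHrP arrays lay above the untreated ones, and replicate 2, at 5.26, was level with the highest PTH array. The 24 h means were 6.04 ± 0.72 (SD, n = 3) with PTHrP, 5.05 ± 0.23 (SD, n = 3) with PTH and 4.43 ± 0.33 (SD, n = 3) untreated. PTHrP was 0.99 ± 0.27 above PTH and 1.60 ± 0.27 above untreated cells, and PTH was 0.61 ± 0.27 above untreated cells, again as a description. All untreated arrays and 1 PTH array of that time lay under the filter level of 5, so these differences are set against dim values and no fold is given. At 6 h Lcn2 differed from untreated cells by 0.58 ± 0.27 with PTH and 0.68 ± 0.27 with PTHrP, and the ligands differed by 0.10 ± 0.27. These are given as values only, since treated arrays alone brought Lcn2 past the filter. The summed neutrophil granule markers, all of them dim, were also higher at 6 h, at 500.7 to 553.4 with PTH and 525.2 to 609.6 with PTHrP against 456.5 to 482.9 in untreated cells. The endothelial markers, dim too, summed at 6 h to 265.4 to 301.9 with PTHrP, 239.2 to 267.6 with PTH and 239.4 to 251.7 in untreated cells. At 24 h the neutrophil granule sum was 412 to 493.3 with PTHrP, 371.9 to 498.1 with PTH and 444.3 to 473.8 in untreated cells. Its part in the Lcn2 and Hp values was not tested. All neighbours in the order of the Lcn2 group means overlapped or touched.

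Hp was the brightest member, with a higher mean than 95.1% of genes, and it rose by 6 h with PTHrP. Untreated cells gave 10.43, 10.32 and 10.78 at 1 h, 10.40, 10.90 and 10.15 at 6 h, and 11.41, 10.93 and 10.09 at 24 h. PTH gave 10.53, 10.11 and 10.69 at 1 h, 10.99, 11.69 and 11.09 at 6 h, and 11.65, 11.47 and 11.14 at 24 h. PTHrP gave 10.70, 10.51 and 11.22 at 1 h, 12.25, 11.49 and 12.11 at 6 h, and 12.43, 11.20 and 12.51 at 24 h. Every PTHrP array at 6 h was above every untreated array of that time, by at least 0.59, and the PTH arrays were above them by at least 0.09. How many of all genes were apart in this way was not counted. Hp rose by 1.47 ± 0.32 with PTHrP at 6 h, a 2.76-fold difference (limma, adjusted p = 0.00147). With PTH at 6 h the difference was 0.77 ± 0.32 (adjusted p = 0.0768), and it passed in 4 of 17 alternative settings. One was the fit without replicate 2 of the untreated cells (0.98, adjusted p = 0.0447). The others were weights for the arrays (adjusted p = 0.0204), a fit of only the groups compared (adjusted p = 0.0231) and that fit with a block for replicate number (adjusted p = 0.000249). The labels do not pair arrays by that number. The ligands at 6 h differed by 0.69 ± 0.32 (adjusted p = 0.219, 95% interval 0.03 to 1.36 unadjusted), with overlapping arrays. Of 17 alternative settings, this passed in 1, the replicate block (adjusted p = 0.0223). PTHrP's effect grew by 1.16 ± 0.46 from 1 to 6 h and did not pass (limma, adjusted p = 0.101), nor did it in 19 of 23 alternative settings. Without replicate 3 of PTHrP at 1 h, the array apart, it was 1.37 and passed (adjusted p = 0.0336). With no single array left out, it passed with array weights (1.28, adjusted p = 0.0137). It also passed with only the groups compared (adjusted p = 0.0465) and with the replicate block (adjusted p = 0.0496). At 24 h PTHrP averaged 12.05 ± 0.74 (SD, n = 3), PTH 11.42 ± 0.26 (SD, n = 3) and untreated cells 10.81 ± 0.67 (SD, n = 3). PTHrP was 0.63 ± 0.32 above PTH and 1.24 ± 0.32 above untreated cells, and the arrays of all 3 groups overlapped. Replicate 2 of PTHrP was the low one, and without it the difference from PTH was 1.05, while without replicate 3 it was 0.39.

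**Figure D2:**
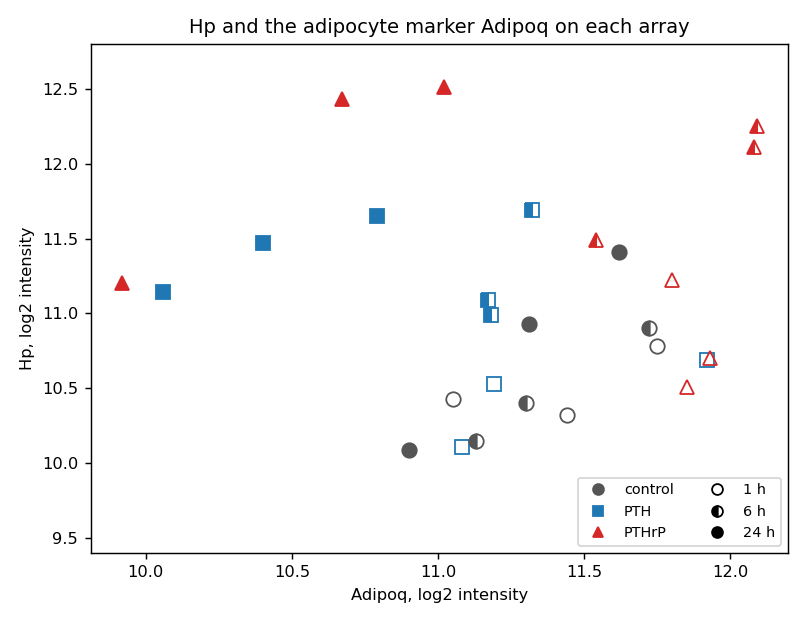
Log2 intensity of Hp against that of Adipoq on each of 27 arrays, with treatment by colour and shape and time by fill (open 1 h, part filled 6 h, filled 24 h). Within each 24 h group the array with the lowest Adipoq also has the lowest Hp.

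Hp moved with adipocyte markers between arrays of the same group. After group means were removed, Hp correlated over the 27 arrays with Adipoq at 0.82, with Fabp4 at 0.72 and with the summed adipocyte markers at 0.76, given as a description of arrays that share their cultures' RNA. The sum is of linear intensities, so Lpl, the brightest of these markers at a mean log2 of 13.14, weighs most in it. Lcn2, Cp and Saa3 correlated with that sum at 0.38, 0.33 and 0.19. Replicate 2 of PTHrP at 24 h, the low Hp and Lcn2 array, also had the lowest Adipoq of all arrays at 9.92 and a marker sum of 12800, against 17570 and 18710 in the other PTHrP arrays of that time. Between groups at 24 h Adipoq averaged 10.53 with PTHrP, 10.42 with PTH and 11.28 in untreated cells. Fabp4 averaged 10.39, 9.67 and 10.66, Retn 7.90, 7.79 and 8.80, Pparg 8.65, 8.64 and 8.97, and Cidec 4.82, 4.41 and 5.05. These were highest in untreated cells. Lpl averaged 13.50, 13.47 and 13.33, the order of Hp, and Cebpa 9.80, 9.47 and 9.68. None of these markers passed between the ligands at 24 h. At 6 h Adipoq differed by 0.52 ± 0.26 between PTHrP and untreated cells (limma, adjusted p = 0.168) and Fabp4 by 0.51 ± 0.34 (adjusted p = 0.323). Cebpa, another marker of the list, differed by -0.14 ± 0.11 with PTHrP (adjusted p = 0.404) and fell by 0.57 ± 0.11 with PTH (adjusted p = 0.000228), and was higher with PTHrP than with PTH by 0.43 ± 0.11 (adjusted p = 0.0175). The summed markers then ranged from 15220 to 18370 with PTHrP, 13880 to 17020 with PTH and 12610 to 16070 in untreated cells. The part of adipocyte content in the Hp values was not tested.

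Cp was the member with the least spread between replicates, a median SD of 0.10. Against untreated cells its mean was lower at 6 h with both ligands, passing only with PTH, and higher at 24 h with PTHrP. Untreated cells gave 10.46, 10.46 and 10.28 at 1 h, 10.43, 10.35 and 10.27 at 6 h, and 10.81, 10.63 and 10.54 at 24 h. PTH gave 10.42, 10.39 and 10.42 at 1 h, 9.87, 10.16 and 10.05 at 6 h, and 10.78, 10.66 and 10.76 at 24 h. PTHrP gave 10.52, 10.42 and 10.07 at 1 h, 10.18, 10.00 and 10.12 at 6 h, and 11.46, 11.32 and 11.20 at 24 h. At 6 h all treated arrays lay below all untreated ones, by 0.11 with PTH and 0.09 with PTHrP, a separation not counted over all genes. At 24 h the PTH arrays lay among the untreated ones and all PTHrP arrays lay above both. Cp fell by 0.33 ± 0.10 with PTH at 6 h, a 1.26-fold decrease (limma, adjusted p = 0.0148), a call lost without replicate 1 of the untreated cells (adjusted p = 0.0702) or replicate 1 of PTH (adjusted p = 0.103). With PTHrP at 6 h the difference was -0.25 ± 0.10 (adjusted p = 0.0859), and the ligands differed by 0.08 ± 0.10 (adjusted p = 0.733, 95% interval -0.13 to 0.29). At 24 h Cp averaged 11.33 ± 0.13 (SD, n = 3) with PTHrP, 10.73 ± 0.06 (SD, n = 3) with PTH and 10.66 ± 0.14 (SD, n = 3) untreated. PTHrP was 0.59 ± 0.10 above PTH, a 1.51-fold difference, 0.67 ± 0.10 above untreated cells, and PTH was 0.07 ± 0.10 above untreated cells. That last value turned to -0.09, -0.12 and -0.14 in 3 other probe sets of Cp. Untreated cells at 24 h were 0.26 ± 0.10 above those at 1 h (limma, adjusted p = 0.0683), without overlap.

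**Figure D3:**
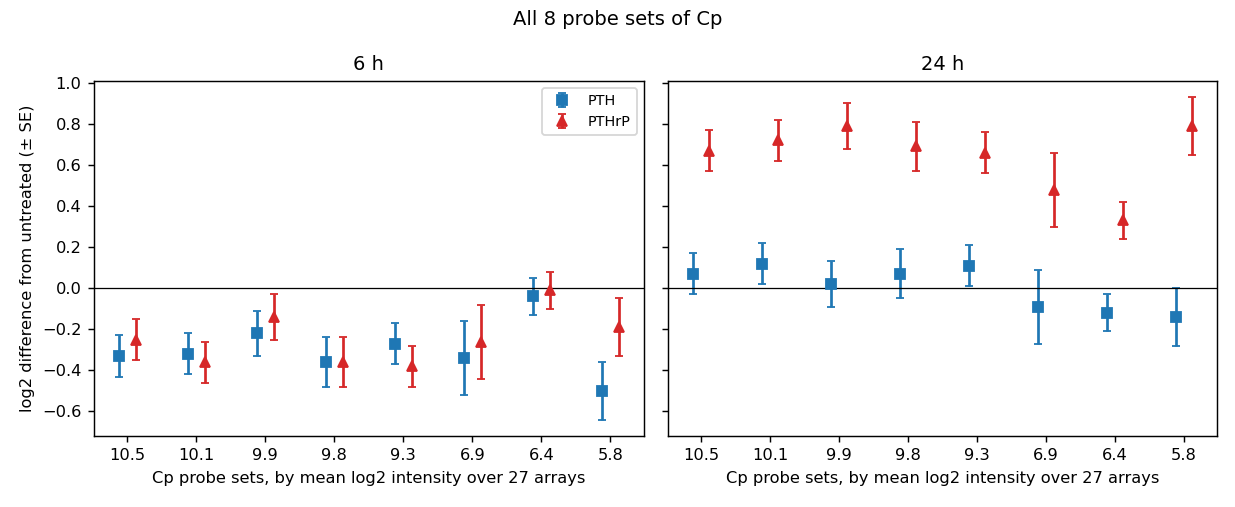
Log2 difference from untreated cells of the same time, with SE, for each of 8 Cp probe sets ordered by mean log2 intensity, at 6 h and 24 h, for PTH (squares) and PTHrP (triangles). At 24 h the PTHrP value is above the PTH value in every probe set, by 0.45 to 0.94.

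The other probe sets of Cp gave the same direction at 24 h, with PTHrP above PTH by 0.45 to 0.94 over all 8. They share the target gene and the RNA, and are not replicates. They correlated with the one used at 0.772 to 0.983 over 27 arrays. At 6 h the fall with PTH passed in 5 of 8 and did not pass in the probe sets with means of 6.39 (-0.04, adjusted p = 0.811), 6.92 (-0.34, adjusted p = 0.176) and 9.93 (-0.22, adjusted p = 0.171). With PTHrP at 6 h, 3 of the other probe sets passed where the one used did not: those with means of 10.14 (-0.36, adjusted p = 0.0137), 9.33 (-0.38, adjusted p = 0.00796) and 9.76 (-0.36, adjusted p = 0.0406). The dimmest, with a mean of 5.85, disagreed with the rest at 1 h, where it read -0.64 with PTH (adjusted p = 0.0136) and -1.01 with PTHrP (adjusted p = 5.75e-05). In that probe set the change of the PTHrP effect from 1 to 6 h was 0.82 (adjusted p = 0.00863), against -0.19 (adjusted p = 0.428) in the one used. All p-values here are limma's.

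**Figure D4:**
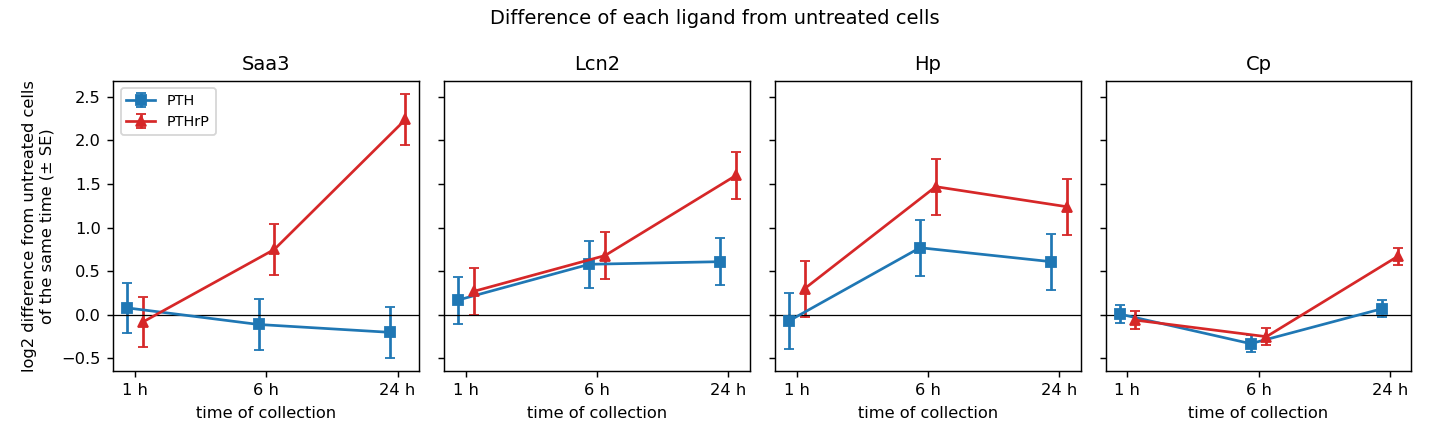
Log2 difference of PTH (squares) and PTHrP (triangles) from untreated cells of the same time, with SE, for each member at 1, 6 and 24 h. With PTHrP at 24 h the values are 2.24 for Saa3, 1.60 for Lcn2, 1.24 for Hp and 0.67 for Cp, and with PTH they are -0.20, 0.61, 0.61 and 0.07.

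Set side by side at 24 h, the 4 measured members were all higher with PTHrP than with PTH in their means, and in 2 of them, Saa3 and Cp, no PTHrP array overlapped a PTH array. Over all 15711 genes tested, 5.95% had PTHrP arrays wholly above PTH arrays at 24 h. Since this comparison chose the members, nothing is read from that count. The 24 h comparisons of PTHrP with PTH and with untreated cells share the PTHrP arrays. Stromal and osteoblast markers also differed between the ligands at 24 h: with PTHrP Ibsp, bone sialoprotein, was higher by 1.29 (limma, adjusted p = 7.89e-05), the osteoblast factor Sp7 by 0.82 (adjusted p = 0.000101), the receptor Pth1r by 0.76 (adjusted p = 3.69e-05) and Col1a1 by 0.33 (adjusted p = 0.0152). The other 4 markers of that list did not pass. The summed intensity of all 8 markers of that list on the array was 53580 to 62810 with PTHrP, 46580 to 49140 with PTH and 69080 to 70130 in untreated cells, without overlap. Its part in the member values was not tested. The Actb 3' to 5' signal, a sign of RNA quality, was 0.44 ± 0.01 (SD, n = 3) with PTHrP at 24 h, 0.42 ± 0.01 with PTH and 0.38 ± 0.01 in untreated cells on the log2 scale. Its difference between ligands, 0.018, had an exact two-sided permutation p of 0.1, the smallest that 3 against 3 allows. For the same signal of Gapdh that difference was -0.008 (exact p = 0.5). The part of either signal in the member values was not tested. At 6 h the Actb signal was higher by 0.082 with PTH (exact p = 0.1) and 0.049 with PTHrP (exact p = 0.3) than in untreated cells, and the Gapdh signal by 0.033 and 0.052 (exact p = 0.1 for each).

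At the times the choice did not use, few members passed. Counts are given for Saa3, Hp and Cp, the 3 members above the filter on all arrays. Lcn2 is left out of them, since treated arrays alone brought it past the filter. At 1 h, none of the 3 passed in limma with PTH (1.74% of all genes did), with PTHrP (1.81%) or between ligands (0%). None had an unadjusted p under 0.05, against 9.12%, 9.46% and 4.02% of all genes. At 6 h, 1 of 3 passed with PTH, Cp lower, where 29.3% of all genes passed. Of the 3, 2 had an unadjusted p under 0.05, against 37.2% of all genes. With PTHrP at 6 h, 1 of 3 passed, Hp higher, where 20.9% of all genes passed. All 3 had an unadjusted p under 0.05, against 31.3% of all genes. Between ligands at 6 h none passed (7.62% of all genes), and 2 of 3, Saa3 and Hp, had an unadjusted p under 0.05, against 20.4% of all genes. The change of effect from 1 to 6 h passed for no member with PTH (18.5% of all genes) or with PTHrP (12.2%), and 1 of 3 had an unadjusted p under 0.05 in each, Cp and Hp, against 29.1% and 25.3% of all genes. In untreated cells no member passed at 6 h against 1 h (2.27% of all genes) or at 24 h against 1 h (23.1%). Of the 3, none and 1, Cp, had an unadjusted p under 0.05, against 11.6% and 31.6% of all genes. The share of members that passed at 6 h was near that of all genes.

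Many of the listed inducers and regulators changed at 1 and 6 h. Of 34 cytokines, receptors and transcription factors listed with the acute phase response, 31 were tested. The list was chosen with earlier results of these data known, so its shares are a description only. At 1 h, 9 were higher and 1 lower with PTH, and 7 higher and 1 lower with PTHrP, 32.3% and 25.8% of the list against 1.74% and 1.81% of all genes. Il6, the cytokine that drives the hepatic response, rose by 5.27 ± 0.37 with PTH (limma, adjusted p = 2.4e-10) and by 4.29 ± 0.37 with PTHrP (adjusted p = 1.39e-08). Cebpd, a C/EBP factor of acute phase transcription, rose by 1.84 ± 0.17 and 1.58 ± 0.17 (adjusted p = 3.42e-08 and 5.12e-07). At 6 h, 22 were higher and 3 lower with PTH, and 20 higher and 1 lower with PTHrP, 80.6% and 67.7% of the list against 29.3% and 20.9% of all genes. Directly compared at 6 h, 2 were higher and 14 lower with PTHrP than with PTH, 51.6% of the list against 7.62% of all genes. Il6 differed by -2.72 ± 0.37 (limma, adjusted p = 4.49e-05), Il6st, the gp130 chain, by -0.58 ± 0.08 (adjusted p = 6.55e-05), and Stat3 by -0.41 ± 0.07 (adjusted p = 0.000864). Saa3 and Hp had positive values in this comparison, 0.86 and 0.69, that did not pass. A difference between the regulators' and the members' values was not tested.

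**Figure D5:**
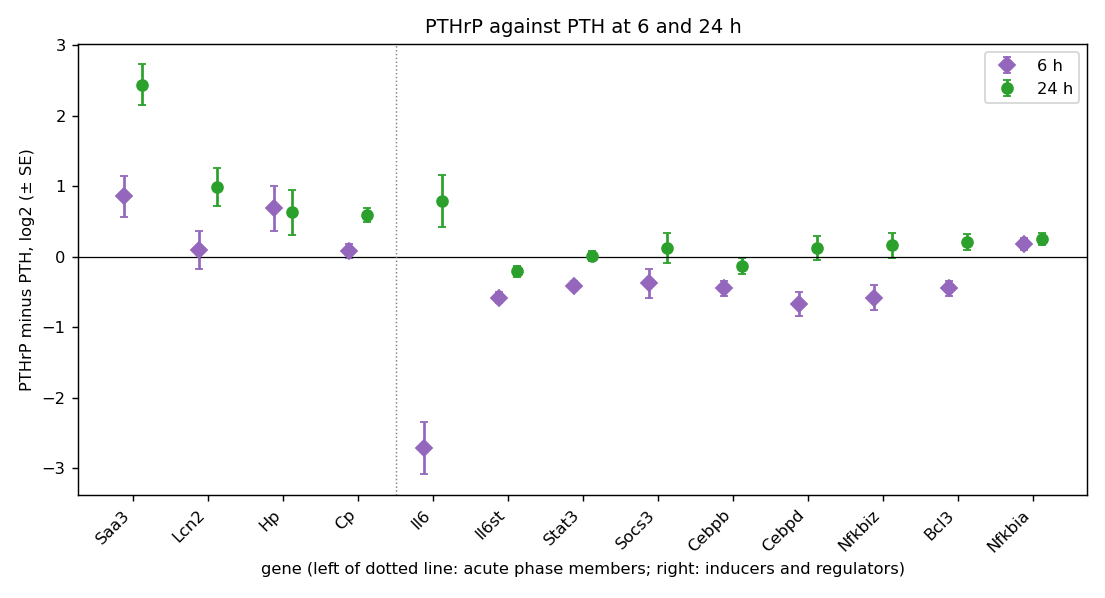
PTHrP minus PTH in log2, with SE, at 6 h (diamonds) and 24 h (circles), for the 4 measured members left of the dotted line and 9 inducers and regulators right of it. At 6 h Il6 lies at -2.72 and Saa3 at 0.86, and at 24 h the 4 members lie between 0.59 and 2.44.

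By 24 h, 15 genes of the list of inducers and regulators were higher and 1 lower with PTH, where 11.6% of all genes passed. With PTHrP 16 were higher and none lower, where 6.1% passed, each against untreated cells. Il6 averaged 6.35 with PTHrP, 5.55 with PTH and 4.95 in untreated cells at that time. It was higher than in untreated cells by 1.40 ± 0.37 with PTHrP (limma, adjusted p = 0.0187). With PTH the Il6 difference was 0.60 ± 0.37 (adjusted p = 0.373), and between ligands 0.79 ± 0.37 (adjusted p = 0.485). Socs3, the feedback inhibitor of gp130 signalling, was higher by 2.18 ± 0.21 with PTH and 2.30 ± 0.21 with PTHrP (limma, adjusted p = 4.61e-08 and 3.89e-08). Nfkbiz, the nuclear inhibitor-kappa B protein that acts as coactivator of Lcn2, was higher by 1.71 ± 0.18 and 1.88 ± 0.18 (adjusted p = 1.77e-07 and 7.19e-08). Between ligands at 24 h, 2 genes of the list passed, where 1.16% of all genes did. These were the chemokines Ccl2, higher with PTHrP by 1.20 ± 0.16 (adjusted p = 9.48e-05), and Cxcl5, higher by 1.05 ± 0.26 (adjusted p = 0.0405). Cebpd and Nfkbiz averaged 9.95 and 9.55 with PTHrP and 9.83 and 9.39 with PTH. Neither passed, nor did Il6st, Stat3, Socs3, Cebpb, Bcl3 or Nfkbia.

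Of 52 other acute phase genes, also listed with earlier results of these data known, 38 were tested. None passed at 1 h with either ligand. At 6 h, 8 were higher and 1 lower with PTH, and 7 higher and 1 lower with PTHrP, 23.7% and 21.1% of the list against 29.3% and 20.9% of all genes. The list's shares were thus below or close to those of all genes. Lrg1, leucine-rich alpha-2-glycoprotein, rose by 1.35 ± 0.29 with PTH (limma, adjusted p = 0.00085) and by 1.99 ± 0.29 with PTHrP (adjusted p = 1.57e-05). The metallothionein Mt2 rose by 1.77 ± 0.18 with PTH and 0.92 ± 0.18 with PTHrP (adjusted p = 4.57e-08 and 0.000607), and was lower with PTHrP than with PTH by -0.85 ± 0.18 (adjusted p = 0.0053). Saa1, the liver-type serum amyloid A gene, named after its values were seen as a relative of Saa3, rose by 0.48 ± 0.14 and 0.42 ± 0.14 (adjusted p = 0.0103 and 0.0313) from a mean of 5.24, and at 24 h it averaged 5.35 with PTHrP and 5.27 with PTH. At 24 h, 6 were higher and 3 lower with PTH, and 6 higher and 1 lower with PTHrP, 23.7% and 18.4% of the list against 11.6% and 6.1% of all genes. Between ligands only C1ra of this list passed, higher with PTHrP by 0.35 ± 0.08 (adjusted p = 0.0185). The list's median difference between ligands at 24 h was 0, against -0.006 over all genes.

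Of 33 receptors and partners of the members' proteins, 24 were tested. Slc40a1, the iron exporter ferroportin whose iron ceruloplasmin oxidises, fell by 3.33 ± 0.10 with PTH at 6 h (limma, adjusted p = 9.07e-18) and was lower with PTHrP too, at -2.08 ± 0.10 (adjusted p = 1.61e-13). It was higher with PTHrP than with PTH by 1.25 ± 0.10 at 6 h (adjusted p = 6.14e-08), a time at which Cp was lower in both treated groups than in untreated cells. Hmox1, heme oxygenase 1, which degrades the heme of captured haemoglobin, rose by 1.32 ± 0.15 and 0.75 ± 0.15 at 6 h (adjusted p = 2.39e-07 and 0.000684). Slc22a17, a receptor for lipocalin 2, averaged between 8.11 and 8.41 in all groups. Cd163, the macrophage receptor for haptoglobin with haemoglobin, averaged 3.65 over the arrays and was too low to be tested. At 24 h none of the 24 passed between ligands.

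The genes whose pattern over the 9 group means was most like each member, among 1999 genes with group means spanning at least 1, differed between members. Hp was closest to Lrg1 at a correlation of 0.982, then Gda at 0.965 and Kng1 at 0.927. Lcn2 was closest to Cxcl5 at 0.942, Ccl9 at 0.918 and Kng1 at 0.908, and Cp to P2rx4 at 0.967, Mgat5 at 0.962 and Slit2 at 0.946. Saa3 was closest to Lcn2, another member, at 0.88, followed by A4galt at 0.844 and Pdgfra at 0.825. Among members, the correlation over the 9 means ran from 0.34 for Hp with Cp to 0.89 for Lcn2 with Hp. After group means were removed, Lcn2 and Hp still correlated at 0.73 and Saa3 and Hp at 0.55 over the 27 arrays, while Lcn2 and Cp stood at 0.17 and Hp and Cp at 0.16. These are descriptions over few groups that share arrays and, for the 24 h groups, the values that chose the members.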

How the data were processed

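Total RNA from KUSA4b10 cells was hybridised to 27 single-colour Affymetrix arrays, 3 in each of 9 groups. The deposited values are linear intensities that the authors summarised per probe set by RMA, as the submitters' processing notes state. The design text adds that they were normalised anew for deposit. Gene symbols came from the platform annotation: of 45101 probe sets, 34945 had 1 symbol, 932 several and 9160 none, and 64 were controls. Intensities were put on a log2 scale, the probe set with the highest mean stood for each gene, and 15711 of 18193 genes were tested, those reaching a log2 of 5 on 3 or more arrays. Group means were fitted with limma 3.58.1 in R 4.3.3 (lmFit and eBayes, 18 residual degrees of freedom), two-sided, with Benjamini-Hochberg adjustment over all genes tested and a threshold of 0.05. Members were tested in 10 comparisons, and their treatment differences at 24 h are given without a test. The fit was tested on simulated data with normal noise over 15711 genes, for PTHrP against PTH at 6 h. It recovered 96% of changes of 1 on the log2 scale and 76% of changes of 0.5. These shares are for genes drawn at random and do not describe Saa3, Lcn2 and Hp. The SEs of those members were 0.29, 0.27 and 0.32, against a median of 0.102.

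The members and all gene lists were chosen with earlier results of these data known. Every member is named. Of each list the text names, per comparison, at most the 3 genes past the threshold with the largest differences, plus the core regulators from Il6 to Nfkbia and the members' direct partners. The 3 genes most like each member are named too. Saa1, Serping1, Hpx and the cell type markers given with values fall outside this rule and were chosen after their values were seen. Precision is limited by how many arrays there are, with a median SE of 0.102 for a difference between groups. Nothing states that replicates came from separate cultures, and p-values then reflect only how these samples vary, possibly for technical reasons. Replicate numbers were checked as pairs: same-numbered arrays correlated over 0.1 in every pair only for PTHrP and untreated cells at 1 h (0.19, 0.27 and 0.45), of 11 pairs of groups checked. Alternatives covered the filter, normalization, scale, probe set, array weights, moderation, arrays fitted, replicate block and single arrays. Promoters came from RefSeq, and background correction and scan date were not analysed here.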

Additional observations from a re-analysis of the deposited data

Results flagged for a closer look

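At 24 h every Saa3 array with PTHrP was above the mean of untreated cells and every array with PTH was below it, and the effects of the ligands differed by 2.44. This difference was not tested, because it chose the gene. Cp lay below untreated cells on every treated array at 6 h and above their mean on every treated array at 24 h. With PTH at 24 h the difference was 0.07 ± 0.10, with arrays that overlapped the untreated ones, and it turned to -0.09, -0.12 and -0.14 in 3 other probe sets. The PTHrP effect at 24 h was 0.92 above that at 6 h, and the PTH effect 0.40 above, and these differences were not tested.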

How the results depend on the processing

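No result that passed turned direction under the settings run. The change of the PTHrP effect on Cp from 1 to 6 h, -0.19 and not passing, was 0.82 and passed in 1 other probe set (adjusted p = 0.00863). Among the treatment differences at 24 h, Saa3 PTHrP against PTH ran from 2.27 to 2.54, Lcn2 from 0.67 to 1.38, Hp from 0.39 to 1.05 and Cp from 0.45 to 0.94. The Cp values that left the spread between replicates came from other probe sets, a check added after the data were seen (0.45, 0.77 and 0.94). Of the 4 members, Lcn2 included, 1 passed with PTH at 6 h, against 3 with array weights, 3 with only the groups compared, 3 with the replicate block, 0 for a change over 1.5-fold, and 0 to 2 leaving out single arrays. With PTHrP at 6 h 1 passed, against 3, 3, 4 and 0 in that order, and 1 to 2 leaving out single arrays. Between ligands at 6 h 0 passed, against 2 with the replicate block and 0 to 1 leaving out single arrays. The change of the PTHrP effect from 1 to 6 h passed in 0, against 3 with array weights, 1 with only the groups compared, 1 with the replicate block, and 0 to 1 leaving out single arrays. Untreated cells at 24 h against 1 h gave 0, against 1 with the mean of all probe sets, array weights, trend and robust moderation or only the groups compared, and 3 with the replicate block. With either ligand at 6 h, Lcn2 was among the members that passed with array weights, only the groups compared or the replicate block. It was also among them with array weights for the change of the PTHrP effect and with the replicate block in untreated cells. Its calls are not read as results, since treated arrays alone brought it past the filter. The cause of these changes in count was not tested. The labels do not pair the arrays. In 0 of 11 pairs of groups did every array correlate best with its own number, and in the 1 pair whose numbers may pair them, the block left the members called at 0. Lcn2 was not tested under the stricter filter.

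Counts of genes past the threshold rose with array weights. For PTH against untreated cells they went from 273 to 802 at 1 h and 1830 to 4388 at 24 h, and for PTHrP from 285 to 1764 at 1 h, 3288 to 6952 at 6 h and 959 to 2079 at 24 h. Between ligands they went from 1197 to 4540 at 6 h and 182 to 1273 at 24 h, for the change of the PTHrP effect from 1915 to 6229, and in untreated cells from 356 to 1307 at 6 h and 3635 to 5651 at 24 h. A change over 1.5-fold left 58, 569 and 134 genes with PTH at 1, 6 and 24 h, 51, 286 and 70 with PTHrP, 7 and 2 between ligands at 6 and 24 h, 335 and 165 for the changes of effect, and 16 and 319 in untreated cells. With only the groups compared, or the replicate block, PTHrP at 1 h gave 103 and 93, ligands at 6 h 769 and 711, and untreated cells at 6 h 584 and 626. Ligands at 24 h gave 83 with only the groups compared and 284 with cyclic loess, and untreated cells at 6 h gave 543 with quantile normalization. Without replicate 3 of PTHrP at 1 h, PTHrP at 1 h gave 931 and the change of its effect 4087. Leaving out single arrays gave 629 to 1035 between ligands at 6 h, 77 to 193 at 24 h and 0 to 1 at 1 h, and 175 to 301 in untreated cells at 6 h. The lowest of these came without replicate 2 of PTH at 6 h, replicate 3 of PTHrP at 24 h and replicate 1 of untreated cells at 1 h.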

Other observations

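A few more genes of the other acute phase list passed, while most of it did not. At 6 h Serping1, the inhibitor of complement C1, rose by 0.41 ± 0.12 with PTH and 0.63 ± 0.12 with PTHrP (limma, adjusted p = 0.0103 and 0.000343). Hpx, the heme-binding protein hemopexin, rose by 0.26 ± 0.08 and 0.39 ± 0.08 (adjusted p = 0.017 and 0.001). F3, tissue factor, fell by 0.54 ± 0.13 with PTH and 0.92 ± 0.13 with PTHrP (adjusted p = 0.00162 and 5.38e-06). At 24 h Plat, tissue plasminogen activator, fell by 0.44 ± 0.10 with PTH and 0.79 ± 0.10 with PTHrP (adjusted p = 0.00271 and 3.12e-06), and Itih2, a hyaluronan-binding inhibitor heavy chain, rose by 0.75 ± 0.11 and 0.42 ± 0.11 (adjusted p = 1.62e-05 and 0.0143). Neither Plat nor Itih2 passed between the ligands at 24 h. Serping1 and Hpx were picked from the list after their values were seen.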
